A study of Mus musculus with 9 samples.

Results

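The genes described here encode the subunits of the mitochondrial respiratory chain and the ATP synthase in mouse liver. They were chosen by name. Symbols beginning with Nduf, Uqcr, Cox4, Cox5, Cox6, Cox7, Cox8 or Atp5 were taken, together with Sdha, Sdhb, Sdhc, Sdhd, Cycs and Cyc1, where a probe set of the array was annotated with exactly 1 symbol. This gave 91 of the 19938 genes measured. By complex they were 34 genes of complex I, 4 of complex II, 9 of complex III, 19 of complex IV, 17 of complex V, the gene of cytochrome c and 7 assembly factors of complex I (Ndufaf1 to Ndufaf7), which are not part of the finished complex. Ndufa4 and Ndufa4l2 were placed with complex IV, where the Ndufa4 protein is now known to belong. Cox7a2l, which encodes a factor that joins complexes III and IV, was also listed there. Genes that the rule took by name but that had no probe set with a single symbol were not analysed here.

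The data were log2 signals from 9 Affymetrix Mouse Gene 1.0 ST arrays of liver RNA, 3 arrays in each of 3 groups. The N-control group was wildtype C57BL/6J mice given tap water. The OB-control group was ob/ob mice (strain B6.V-Lepob/J), which make no functional leptin in any tissue and become obese with a fatty liver, also given tap water. The OB-TUDCA group was ob/ob mice of the same strain given tauroursodeoxycholic acid (TUDCA), a taurine-conjugated bile acid, at 500 mg/kg. All 3 groups were gavaged 2 times a day for 3 weeks, ate normal chow and were killed after 8 h of fasting. According to the methods the mice were male, were 6 weeks old at the start and numbered 6 a group, and the N-control mice were littermates of the ob/ob mice. The labels call the 3 arrays of a group biological replicates. Values are log2 signals, so that a difference of 1 is a doubling. Because probes differ in brightness, levels of different genes are compared only roughly, for cell type markers and for dim genes.

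Complex I takes electrons from NADH and complex II from succinate, and both pass them to ubiquinone. Complex III hands them on to cytochrome c and complex IV to oxygen, while protons are pumped out of the matrix by complexes I, III and IV. Complex V, the ATP synthase, lets the protons back in and makes ATP. In hepatocytes this chain takes up the electrons that the oxidation of fatty acids releases, and it is the main site of ATP production. Nearly all the subunits are encoded in the nucleus, and the transcription factors NRF1, GABPA and the oestrogen-related receptors, with the coactivator PGC-1α, are known regulators of many of these genes.

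The promoters were searched for the letters that these factors, YY1 and CREB are known to bind. RefSeq windows of GRCm38.p6, from 250 bases before to 50 bases after a gene's start, were found for 74 of the 91 genes. Searched on both strands, the NRF1 motif, written GCGCA, any base and GCGC, stood in the windows of 18 genes (24.3%), whereas 5.19% of all 27025 genes with a window held it. The YY1 motif AAGATGGC stood in 10 (13.5%, against 3.19% of all genes), the CREB motif TGACGTCA in 5 (6.76% against 2.03%), the GABPA motif CCGGAAGT in 5 (6.76% against 4.31%) and the oestrogen-related receptor motif TCAAGGTCA in 2 (2.7% against 0.466%). None of the 5 strings contains another, a window can hold several of them, and 39 of the 74 genes held none. The NRF1 matches are shown for members of complexes I, II, IV and V and for an assembly factor, because this was the motif found most often. Each line gives 30 bases of GRCm38.p6, 5′ to 3′ on the strand of the gene, with the motif in capitals.

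Sdha, chr13:74350319-74350348, minus strand: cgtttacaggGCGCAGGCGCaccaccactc
Sdha, chr13:74350276-74350305, minus strand: ggggcgtgttGCGCAGGCGCagaatcttcc
Sdha, chr13:74350231-74350260, minus strand: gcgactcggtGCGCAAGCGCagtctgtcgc
Sdhd, chr9:50603909-50603938, minus strand: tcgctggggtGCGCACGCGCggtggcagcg
Cox6a1, chr5:115349101-115349130, minus strand: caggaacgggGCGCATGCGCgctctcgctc
Cox6a1, chr5:115349056-115349085, minus strand: cggataaagtGCGCAGGCGCtggagttcct
Ndufs5, chr4:123718265-123718294, minus strand: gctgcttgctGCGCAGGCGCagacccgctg
Atp5k, chr5:108434430-108434459, minus strand: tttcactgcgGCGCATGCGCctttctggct
Ndufaf4, chr4:24897960-24897989, plus strand: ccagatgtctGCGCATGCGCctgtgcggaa

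Sdha, which encodes the flavoprotein of complex II, held 3 such matches within 98 bases before its start. A match is a run of letters and says nothing of whether the factor bound in these livers. The median log2 difference of the 18 genes with the motif was -0.01 between OB-control and N-control, 0.02 between OB-TUDCA and OB-control and -0.01 between OB-TUDCA and N-control. For the 56 genes without it the medians were -0.01, -0.01 and 0.01.

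The arrays were checked before the groups were compared. Arrays of the same group correlated with r of 0.9875 to 0.9944 across all genes. Of 10 hepatocyte markers 8 were measured, and all lay at or above percentile 98.14 of the mean signal, as the label liver implies. In N-control replicate 2 the mean of 23 pancreatic acinar genes was 9.93 on the log2 scale, against 3.79 to 4.20 on the other 8 arrays. The respiratory chain genes of that array did not stand apart in the same way, with a median of 0.03 above the mean of each gene over the 9 arrays, and without it the median differences of the 91 genes were -0.002, 0.01 and 0.02 in the 3 comparisons.

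OB-TUDCA replicate 3 stood apart in the respiratory chain genes. Its 91 genes had a median of 0.15 below their own means over the 9 arrays, while the other 8 arrays had medians between -0.05 and 0.07. It had the lowest value of all 9 arrays for 40 of the 91 genes (44.0%) and the highest for none. Over all 19938 genes it was the lowest array for 12.4%, and its median deviation was -0.004. The shortfall was seen in 30 of 34 complex I genes (median -0.21), 4 of 4 complex II genes (-0.15), 9 of 9 complex III genes (-0.17), 15 of 17 complex V genes (-0.16) and 12 of 19 complex IV genes (-0.07). On the same array the median of 61 cytosolic ribosomal protein genes was 0.02 above their means, that of 77 mitochondrial ribosomal protein genes was -0.04 and that of 12 citric acid cycle genes was -0.09. It was not the respiratory chain genes alone that were low there. For 8 genes of electron entry from fatty acid and glycerol 3-phosphate oxidation the array had a median of -0.18, against 0.02 and 0.003 on OB-TUDCA replicates 1 and 2. The 2 mitochondrially encoded subunits measured were at -0.25, and at -0.18 and -0.15 on those replicates. The hepatocyte markers had a median of 0.01 there, and 8 Kupffer cell and macrophage markers had 0.22, with 0.27 in OB-TUDCA replicate 2, where the respiratory chain genes were not low. The part of these lists in the shortfall was not tested. Medians without the array are given for each complex below, since it moves the side of 0 on which the TUDCA medians of several complexes fall. The array was picked out by the low values of these same genes, so leaving it out by itself raises most of their OB-TUDCA means. Values without it show how far a result rests on 1 array and are no sign of a rise with TUDCA. In RNA of whole liver, fewer hepatocytes and less of these mRNAs per hepatocyte cannot be told apart.

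**Figure D1:**
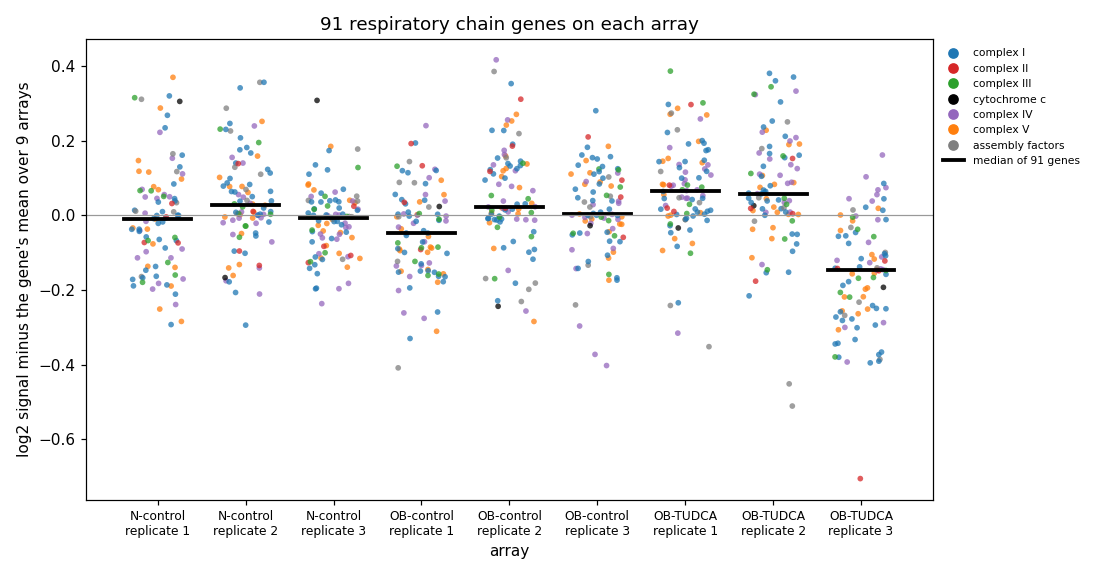
Each point is 1 of the 91 respiratory chain genes on 1 of the 9 arrays, drawn as its log2 signal minus the gene's own mean over the arrays, with colours for the complexes and a black bar for the median of the 91 genes. The bars of 8 arrays lie between -0.05 and 0.07, and that of OB-TUDCA replicate 3 lies at -0.15.

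Leptin deficiency was compared first, as OB-control against N-control. None of the 91 genes passed limma's adjusted p of 0.05, with 0.948% of all genes called in this comparison. At an unadjusted limma p under 0.05 there were 5 genes, 2 higher (Atp5d and Sdha) and 3 lower (Atp5h, Atp5md and Uqcrb), which is 5.49% of the 91 beside 12.1% of all genes. The 3 arrays of one group did not overlap the 3 of the other for 18 genes (19.8%), close to the 15.3% of all genes for which this was so. The median difference of the 91 genes was -0.01, with 44 means higher and 47 lower in OB-control, and the median of all genes was 0.02.

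TUDCA treatment was compared next, as OB-TUDCA against OB-control. Again no member passed the adjusted threshold, where 0.301% of all genes did. Unadjusted, 9 genes had a p under 0.05, 4 higher (Ndufa3, Uqcr10, Cox7a2l and Cox8b) and 5 lower (Ndufaf1, Ndufaf7, Sdha, Ndufs1 and Ndufs3), or 9.89% beside 12.0% of all genes. Groups did not overlap for 12 genes (13.2%), beside 13.8% of all genes. The median difference was 0.01, as over all genes (0.01). Without OB-TUDCA replicate 3 the median of the 91 genes became 0.08 and that of all genes 0.02, and 66 of the 91 means (72.5%, beside 54.8% of all genes) were then higher in OB-TUDCA in place of 48. No gene of the whole array passed the threshold in that smaller fit, and 17 of the 91 had an unadjusted p under 0.05 (18.7% beside 11.9% of all genes), 12 higher and 5 lower. The array was left out because these genes were low on it. The upward shift follows from that choice, and the shares of all genes are no fair measure of it.

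The third comparison, OB-TUDCA against N-control, shares its arrays with the other two. One gene, Ndufaf1, was called and was lower in OB-TUDCA, or 1 of 91 where 3.24% of all genes were called. At an unadjusted p under 0.05 there were 13 genes, 4 higher and 9 lower (14.3% beside 18.5% of all genes). Groups did not overlap for 21 genes (23.1% beside 20.7%). The median difference of the 91 genes was 0.003, beside 0.04 for all genes, and it was 0.07 without OB-TUDCA replicate 3, beside 0.04 for all genes in that fit.

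The sizes of the differences were small throughout. No gene of the 91 differed by 1.5-fold (0.585 on the log2 scale) in any comparison, whereas 2.81%, 2.41% and 4.77% of all genes did in the order above. The 95% interval of the difference lay within 1.5-fold in both directions for 86 of 91 genes in OB-control against N-control (94.5%, beside 85.3% of all genes), for 86 in OB-TUDCA against OB-control (94.5% beside 85.2%) and for 82 in OB-TUDCA against N-control (90.1% beside 81.4%). Either end of such an interval lay 0.24 from the difference at the median over the 91 genes, so a smaller difference could not be told from 0 for a gene of median precision with 3 arrays a group. The SD of the differences across the 91 genes was 0.14, 0.15 and 0.18, against 0.27, 0.22 and 0.31 across all genes. Of the 91 genes, 88 had a mean log2 signal above 3.98, the limit set here for dim genes, and 3 (Cox7b2, Cox8b and Ndufaf5) lay below it.

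**Figure D2:**
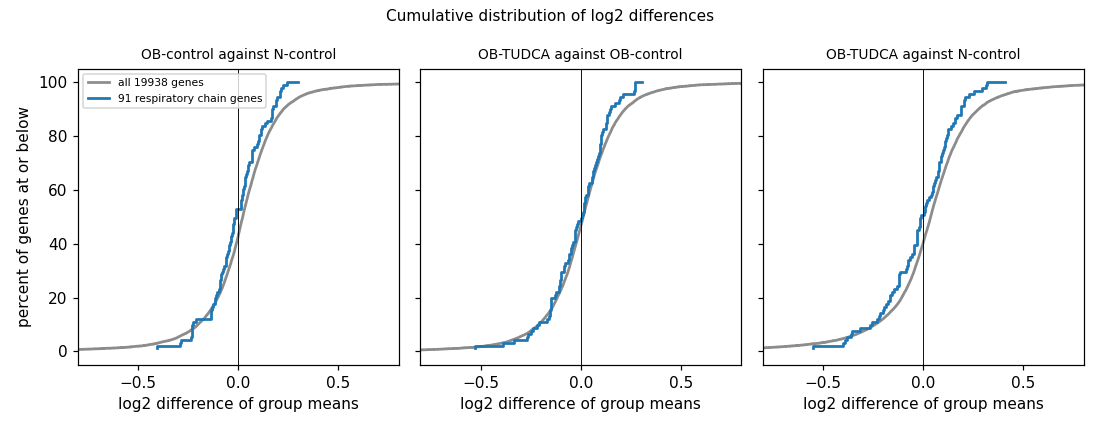
Percent of genes (y axis) at or below a log2 difference of group means (x axis, drawn from -0.8 to 0.8) for the 91 respiratory chain genes in blue and all 19938 genes in grey, 1 panel for each comparison. The blue curves reach 0% and 100% within 0.585 of 0 in every panel, and their medians are -0.01, 0.01 and 0.003.

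Complex I is the largest complex, and its 34 genes stayed close to 0 as a group. Their median difference was -0.03 between OB-control and N-control (15 means higher, 19 lower), -0.03 between OB-TUDCA and OB-control (again 15 and 19) and -0.02 between OB-TUDCA and N-control (16 and 18). Without OB-TUDCA replicate 3 the last 2 medians were 0.08 and 0.07, with 22 and 20 means higher. When the genes were divided into the core subunits that carry the electron path (Ndufv1, Ndufv2, Ndufs1, Ndufs3, Ndufs7 and Ndufs8) and the accessory ones, a division made after the values were seen, 5 of 6 core means and 14 of 28 accessory means were lower in OB-TUDCA than OB-control. The medians were -0.13 and -0.002. Without replicate 3 they were -0.04, with 3 of 6 core means lower, and 0.12.

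Ndufs1 encodes the large iron-sulphur subunit at the entrance of the electron path. Its log2 signals were 9.94, 9.96 and 9.89 on N-control, 9.81, 9.81 and 9.90 on OB-control and 9.74, 9.56 and 9.41 on OB-TUDCA arrays. All 3 OB-TUDCA arrays lay below the other 6, and N-control and OB-control overlapped. The difference between OB-TUDCA and N-control was -0.36 (SE 0.09, limma adjusted p = 0.0719), and between OB-TUDCA and OB-control -0.27 (SE 0.09, adjusted p = 0.263). The first of these passed the threshold when each array's median was subtracted (adjusted p = 0.0464) and without OB-TUDCA replicate 1 (0.0267), but not in the fit of the values as deposited. Without OB-TUDCA replicate 3 the differences were -0.28 against N-control (adjusted p = 0.148) and -0.19 against OB-control (adjusted p = 0.431).

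Ndufs3, another core subunit, gave 9.92, 9.97 and 10.003 on N-control, 10.08, 10.09 and 10.07 on OB-control and 9.95, 9.87 and 9.71 on OB-TUDCA arrays. The OB-control arrays lay above all others and within 0.02 of each other. The difference between OB-TUDCA and OB-control was -0.24 (SE 0.08, adjusted p = 0.251), and both of its probe sets gave -0.24. Without OB-TUDCA replicate 3 the difference was -0.17 (limma adjusted p = 0.407). Ndufv2, the small flavoprotein-fragment subunit, had signals of 9.35, 9.47 and 9.39 on N-control, 9.03, 9.24 and 9.24 on OB-control and 9.19, 9.24 and 8.84 on OB-TUDCA arrays. Both ob/ob groups lay below N-control without overlap, by 0.24 (SE 0.11, adjusted p = 0.451) in OB-control and 0.31 (adjusted p = 0.187) in OB-TUDCA. The latter difference was -0.19 (adjusted p = 0.336) without OB-TUDCA replicate 3.

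Among the accessory subunits, Ndufb6, of the membrane arm, had the lowest difference between OB-TUDCA and N-control. It measured 9.47, 9.38 and 9.21 on N-control, 8.998, 9.06 and 9.31 on OB-control and 8.92, 9.10 and 8.91 on OB-TUDCA arrays, a difference of -0.38 (SE 0.11, adjusted p = 0.101). Ndufa8 lay the other way, at 8.70, 8.44 and 8.58 in N-control and 8.93, 8.84 and 8.82 in OB-TUDCA (0.29, SE 0.11, adjusted p = 0.189), with OB-control arrays at 8.85, 8.55 and 8.89 across both ranges. The highest complex I difference between these groups was that of Ndufa7, at 0.31 (SE 0.17, adjusted p = 0.366), with overlapping arrays. It was 0.52 without OB-TUDCA replicate 3 (adjusted p = 0.0706). None of these differences passed the test. The widest differences between OB-TUDCA and OB-control among accessory genes were 0.26 for Ndufa3 (SE 0.11, adjusted p = 0.385) and -0.21 for Ndufab1, the acyl carrier protein of the mitochondrion (SE 0.12, adjusted p = 0.557). Without OB-TUDCA replicate 3 the difference of Ndufab1 was -0.11, and Ndufb6, also at -0.11, was then the lowest accessory gene.

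**Figure D3:**
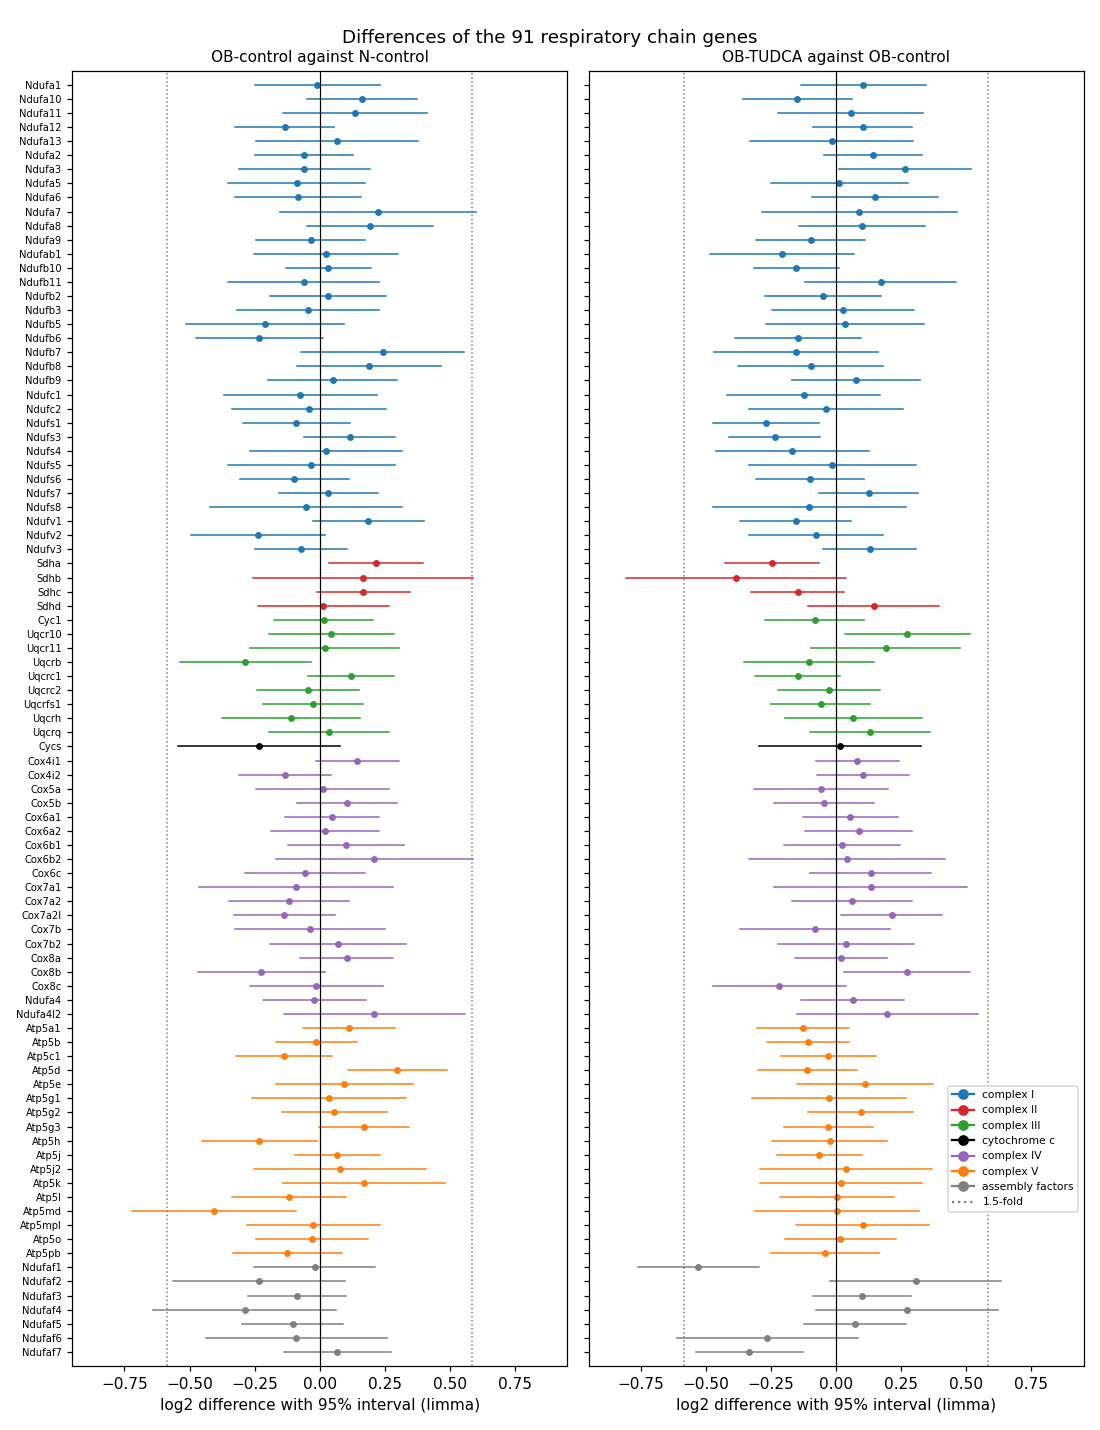
Log2 difference (point) with its 95% interval from limma (line) for each of the 91 genes, coloured by complex, for OB-control against N-control (left) and OB-TUDCA against OB-control (right). Dotted lines mark 1.5-fold, and 86 of the 91 intervals lie within them in each panel.

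The 7 assembly factors build complex I. They held the single gene called and the widest scatter of the groups described here, with an SD of the differences between OB-TUDCA and OB-control of 0.32, against 0.13 in the 82 genes of subunits. Ndufaf1, known as CIA30, helps to put together the membrane arm. Its log2 signals were 8.13, 8.19 and 8.14 on N-control, 8.05, 8.35 and 8.00 on OB-control and 7.72, 7.51 and 7.58 on OB-TUDCA arrays. Every OB-TUDCA array lay below every other array, and the 2 groups without TUDCA overlapped. The mean was 7.61 ± 0.11 (SD, n = 3) in OB-TUDCA and 8.15 ± 0.03 in N-control, a difference of -0.55 (SE 0.10, 95% interval -0.78 to -0.32, limma adjusted p = 0.0234) or 0.683 times the N-control signal. Against OB-control, at 8.13 ± 0.19, the difference was -0.53 (SE 0.10, adjusted p = 0.0744), which missed the threshold, and OB-control differed from N-control by -0.02 (adjusted p = 0.971).

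OB-TUDCA replicate 3 held the middle value of its group for Ndufaf1, and the call was close to the threshold. Over 18 alternative settings the difference between OB-TUDCA and N-control stayed between -0.61 and -0.50, with an adjusted p of 0.0106 to 0.0963. The adjusted p rose above 0.05 without N-control replicate 1 (0.0873), 2 (0.0813) or 3 (0.0582), without OB-TUDCA replicate 2 (difference -0.50, adjusted p = 0.0963) or 3 (-0.54, adjusted p = 0.0710), and with the mean of the pancreatic acinar genes as covariate (-0.53, adjusted p = 0.0723). Its promoter is shown because it is the gene that passed the test. The 250 bases before its start, at chr2:119662835-119663084 of GRCm38.p6 on the minus strand, hold none of the 5 motifs and have a GC content of 49.2%.

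Ndufaf1: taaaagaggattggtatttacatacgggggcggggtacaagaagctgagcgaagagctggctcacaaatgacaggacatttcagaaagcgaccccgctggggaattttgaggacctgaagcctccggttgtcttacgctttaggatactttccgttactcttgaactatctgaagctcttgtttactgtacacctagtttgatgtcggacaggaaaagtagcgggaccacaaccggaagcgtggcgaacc

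Ndufaf7, a methyltransferase that acts early in assembly, was the other assembly factor whose OB-TUDCA arrays lay below all the rest. It measured 7.15, 7.08 and 7.08 on N-control, 7.18, 7.19 and 7.14 on OB-control and 6.68, 7.02 and 6.80 on OB-TUDCA arrays. The difference was -0.33 against OB-control (SE 0.09, adjusted p = 0.163) and -0.27 against N-control (adjusted p = 0.162). Ndufaf2 and Ndufaf4 lay the other way between OB-TUDCA and OB-control, at 0.31 (SE 0.15, adjusted p = 0.448) and 0.27 (SE 0.16, adjusted p = 0.543), with overlapping arrays. For Ndufaf4 the difference was 0.45 without OB-TUDCA replicate 3 (adjusted p = 0.202). In that comparison 4 of the 7 factors differed upward in mean and 3 downward, and the sole one to pass the test in any comparison was Ndufaf1. Ndufaf6 had a difference of -0.35 between OB-TUDCA and N-control.

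Complex II is the smallest, with 4 subunits, and is also succinate dehydrogenase of the citric acid cycle. All 4 means were higher in OB-control than N-control (median 0.17, with 3 of 4 higher without N-control replicate 2) and 3 of 4 were lower in OB-TUDCA than OB-control (median -0.20). Between OB-TUDCA and N-control the median was -0.01. Without OB-TUDCA replicate 3 the last 2 medians were -0.12, again with 3 of 4 lower, and 0.05, with 3 of 4 higher. No gene of the 4 passed the adjusted threshold in any comparison. Both medians share the OB-control arrays, so a high mean there gives opposite signs in the 2 comparisons.

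Sdha, the flavoprotein that oxidizes succinate, measured 11.03, 10.96 and 11.12 on N-control, 11.23, 11.22 and 11.31 on OB-control and 11.12, 10.92 and 10.98 on OB-TUDCA arrays. The OB-control arrays were the highest of the 9. The difference was 0.21 between OB-control and N-control (SE 0.08, 95% interval 0.03 to 0.40, adjusted p = 0.316) and -0.25 between OB-TUDCA and OB-control (SE 0.08, interval -0.43 to -0.07, adjusted p = 0.243). Sdhc, a membrane anchor, was also highest on the OB-control arrays. It measured 9.50, 9.58 and 9.45 on N-control, 9.61, 9.76 and 9.67 on OB-control and 9.58, 9.58 and 9.43 on OB-TUDCA arrays. Its differences were 0.17 (SE 0.08, adjusted p = 0.438) and -0.15 (SE 0.08, adjusted p = 0.512), the second -0.10 without OB-TUDCA replicate 3.

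Sdhb, the iron-sulphur subunit, was decided by a single array. It measured 9.30, 9.44 and 9.22 on N-control, 9.50, 9.62 and 9.35 on OB-control and 9.39, 9.32 and 8.60 on OB-TUDCA arrays, where replicate 3 was the lowest of the 9. The difference between OB-TUDCA and OB-control was -0.39 (SE 0.19, adjusted p = 0.457) with that array and -0.13 without it. Sdhd, the other membrane anchor, measured 9.62, 9.49 and 9.48 on N-control, 9.49, 9.60 and 9.53 on OB-control and 9.88, 9.74 and 9.44 on OB-TUDCA arrays, a difference of 0.14 (SE 0.11, adjusted p = 0.667) between the last 2 groups and 0.27 without replicate 3.

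**Figure D4:**
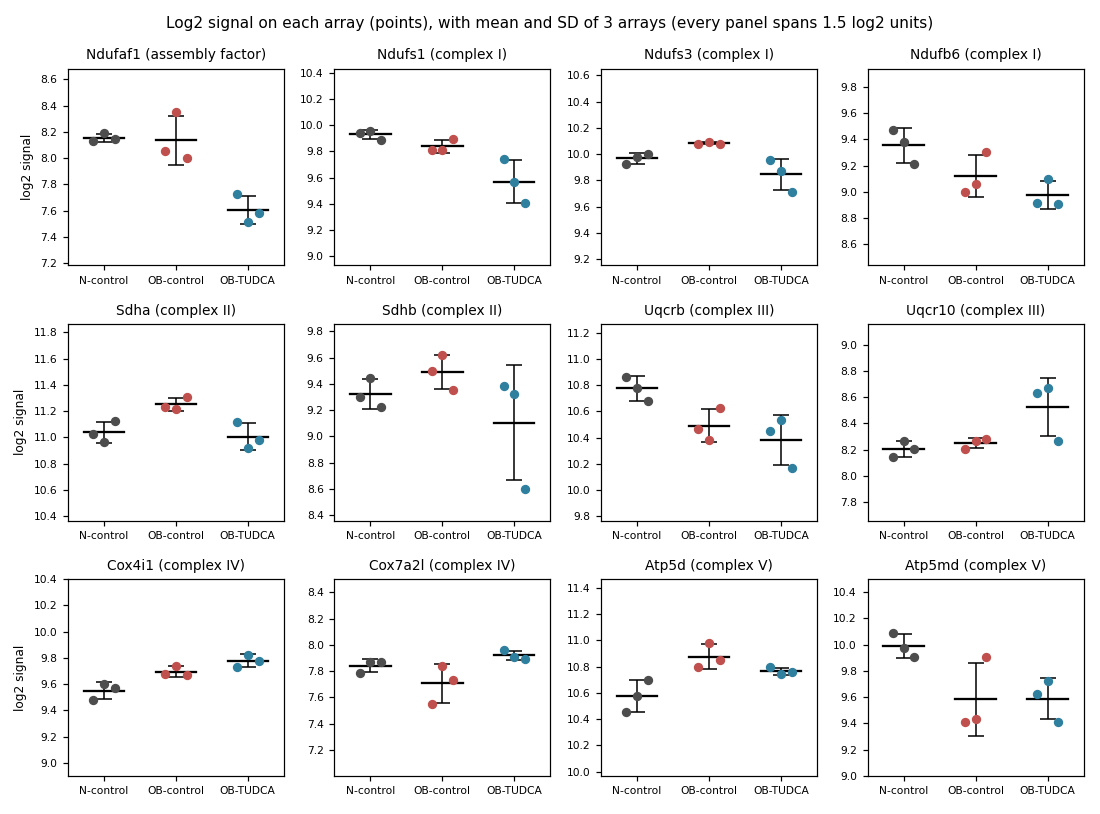
Log2 signal of 12 genes on each of 9 arrays (coloured points), with the mean (wide bar) and SD (whiskers) of the 3 arrays of N-control, OB-control and OB-TUDCA; every panel spans 1.5 log2 units. Ndufaf1 lies at 7.51 to 7.72 in OB-TUDCA and at 8.00 or above on the other 6 arrays, and Sdhb falls to 8.60 on 1 OB-TUDCA array.

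Complex III passes electrons from ubiquinol to cytochrome c. Its 9 genes had median differences of 0.02, -0.03 and -0.04 in the 3 comparisons, and no gene was called. The last 2 medians turned to 0.06, with 7 of 9 means higher, and 0.02, with 5 of 9 higher, when OB-TUDCA replicate 3 was left out. Uqcrb, a small ubiquinone-binding subunit, measured 10.87, 10.78 and 10.68 on N-control, 10.46, 10.38 and 10.63 on OB-control and 10.45, 10.54 and 10.17 on OB-TUDCA arrays. N-control lay above both ob/ob groups, by 0.29 over OB-control (difference -0.29, SE 0.11, adjusted p = 0.342) and by 0.39 over OB-TUDCA (difference -0.39, adjusted p = 0.102). Its 3 probe sets gave -0.34 to -0.21 for the first of these. The second was -0.28 without OB-TUDCA replicate 3 (adjusted p = 0.203).

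Uqcr10, a small supernumerary subunit, measured 8.15, 8.27 and 8.20 on N-control, 8.20, 8.27 and 8.28 on OB-control and 8.63, 8.67 and 8.27 on OB-TUDCA arrays. Replicates 1 and 2 of OB-TUDCA were the highest of the 9 arrays, and replicate 3 lay among the controls. The difference was 0.27 against OB-control (SE 0.11, adjusted p = 0.345) and 0.32 against N-control (SE 0.11, adjusted p = 0.157). Without replicate 3 these became 0.40 (adjusted p = 0.119) and 0.44, and the second then passed the threshold (adjusted p = 0.0366). Replicate 3 was the lowest of its group for this gene, so leaving it out had to raise both differences. The core proteins Uqcrc1 and Uqcrc2, the Rieske protein Uqcrfs1 and cytochrome c1 (Cyc1) differed by 0.12 or less between OB-control and N-control and by 0.15 or less between OB-TUDCA and OB-control, in either direction.

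Cycs encodes cytochrome c, the mobile carrier between complexes III and IV. The average of its 3 probe sets was 8.31, 7.84 and 8.31 on N-control, 8.03, 7.76 and 7.98 on OB-control and 7.97, 8.03 and 7.81 on OB-TUDCA arrays, so the groups overlapped. The difference was -0.23 between OB-control and N-control (SE 0.14, adjusted p = 0.561) and 0.02 between OB-TUDCA and OB-control (SE 0.14, adjusted p = 0.979). The probe sets did not share a direction in the latter, with differences from -0.19 to 0.16. The 2 brighter ones, with mean signals of 9.45 and 10.11, gave 0.08 and 0.16, and the dimmest, at 4.45, gave -0.19. In OB-control against N-control the same probe sets gave -0.33, -0.32 and -0.05.

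Complex IV reduces oxygen to water. Of its 19 genes 15 had a higher mean in OB-TUDCA than OB-control, with a median of 0.06, where 53.6% of all genes had a higher mean and the median was 0.01. It was also the complex least low on OB-TUDCA replicate 3, and without that array 18 of 19 means were higher (94.7%, beside 54.8% of all genes) with a median of 0.12. Here too the move upward follows from the choice of the array left out. None of the 19 passed the adjusted threshold with or without that array in this comparison. Among the 19 are Ndufa4l2 and the forms made mainly in other tissues, whose low signals are given below. The counts and the median on replicate 3 are therefore not those of the main liver subunits alone. Between OB-control and N-control 10 means were higher and 9 lower (median 0.01), and between OB-TUDCA and N-control 14 were higher and 5 lower (median 0.07).

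Cox4i1 encodes the common form of the regulatory subunit 4. It measured 9.48, 9.60 and 9.57 on N-control, 9.68, 9.74 and 9.67 on OB-control and 9.73, 9.83 and 9.78 on OB-TUDCA arrays, so that both ob/ob groups lay above N-control. The difference was 0.14 (SE 0.07, adjusted p = 0.451) in OB-control and 0.23 (SE 0.07, adjusted p = 0.126) in OB-TUDCA. Cox7a2l measured 7.78, 7.87 and 7.87 on N-control, 7.55, 7.84 and 7.73 on OB-control and 7.96, 7.91 and 7.89 on OB-TUDCA arrays, whose arrays were the highest 3 of the 9. It was 0.21 higher in OB-TUDCA than OB-control (SE 0.09, adjusted p = 0.359), and both probe sets gave 0.21 to 0.22.

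Several complex IV subunits have forms made mainly in other tissues. Cox6a2, Cox7a1 and Cox8b are heart and skeletal muscle forms, Cox4i2 is a lung form, and Cox6b2, Cox7b2 and Cox8c are known from testis. Their log2 signals stayed within 4.82 to 5.12 for Cox6a2, 4.94 to 5.55 for Cox7a1, 3.47 to 4.02 for Cox8b, 4.35 to 4.64 for Cox4i2, 4.18 to 4.97 for Cox6b2, 2.49 to 2.90 for Cox7b2 and 4.80 to 5.37 for Cox8c over the 9 arrays. None was called in any comparison. The skeletal muscle marker genes had means of 3.84 to 4.17 on the 9 arrays. Ndufa4l2, the counterpart of Ndufa4 that low oxygen is known to induce, measured 4.26, 4.35 and 4.26 on N-control, 4.74, 4.67 and 4.09 on OB-control and 4.60, 4.83 and 4.66 on OB-TUDCA arrays. Its difference between OB-TUDCA and N-control was 0.41 (SE 0.16, adjusted p = 0.202), and leaving out OB-control replicate 3, which enters only through the shared spread, gave an adjusted p of 0.0437. Ndufa4 itself differed by 0.04 between the same groups (SE 0.09, adjusted p = 0.847).

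Complex V, the ATP synthase, had 17 genes, with medians of 0.03, -0.02 and 0.003 in the 3 comparisons and no gene called. Without OB-TUDCA replicate 3 the median against OB-control turned to 0.06, with 13 of 17 means higher in place of 8, and that against N-control was 0.07. Its differences between OB-TUDCA and OB-control covered the narrowest range of the 5 complexes, from -0.13 (Atp5a1, the alpha subunit) to 0.11 (Atp5e, the epsilon subunit), with an SD of 0.07. Without that replicate the highest of them, that of Atp5e, was 0.24 and the SD was 0.11. Between OB-control and N-control they ran from -0.41 to 0.30. These 2 extremes were Atp5md, a small membrane subunit that supports dimers of the synthase, and Atp5d, the delta subunit of the central stalk.

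Atp5d measured 10.45, 10.58 and 10.70 on N-control, 10.79, 10.98 and 10.85 on OB-control and 10.79, 10.74 and 10.76 on OB-TUDCA arrays. Both ob/ob groups lay above N-control, by 0.30 in OB-control (SE 0.09, 95% interval 0.11 to 0.49, adjusted p = 0.175) and by 0.19 in OB-TUDCA (SE 0.09, adjusted p = 0.278). Atp5md measured 10.09, 9.97 and 9.91 on N-control, 9.41, 9.44 and 9.91 on OB-control and 9.63, 9.72 and 9.41 on OB-TUDCA arrays. OB-control replicate 3 lay with N-control, and the difference of -0.41 (SE 0.14, adjusted p = 0.272) was that of a group with an SD of 0.28. All 3 probe sets of Atp5md gave a lower value in OB-control, from -0.46 to -0.37.

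Atp5h, a subunit of the peripheral stalk, measured 10.37, 10.25 and 10.13 on N-control, 9.99, 9.998 and 10.06 on OB-control and 10.02, 10.13 and 9.82 on OB-TUDCA arrays. It was lower than N-control by 0.23 in OB-control (difference -0.23, SE 0.10, adjusted p = 0.386) and by 0.26 in OB-TUDCA (difference -0.26, adjusted p = 0.204). The latter difference was -0.17 without OB-TUDCA replicate 3 (adjusted p = 0.383), and with all arrays its 3 probe sets ran from -0.37 to -0.13. The catalytic beta subunit gene Atp5b differed by -0.01 and -0.11 (SE 0.07 each) in the first 2 comparisons. The 3 genes that encode an identical mature c subunit of the rotor, Atp5g1, Atp5g2 and Atp5g3, differed by 0.03, 0.06 and 0.17 between OB-control and N-control and by -0.03, 0.10 and -0.03 between OB-TUDCA and OB-control, with standard errors of 0.08 to 0.13.

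More than 1 probe set measured 18 of the 91 genes, and these repeat the measurement on the same RNA. Within a gene all probe sets gave the same sign for 13 of 18 genes in OB-control against N-control, 13 in OB-TUDCA against OB-control and 17 in OB-TUDCA against N-control. The distance between the highest and the lowest probe set of a gene had a median of 0.10, 0.05 and 0.08 in the same order, against a median absolute difference of 0.09, 0.10 and 0.12 over the 91 genes. Processed pseudogenes are common for small mitochondrial proteins, and whether probe sets also measured such copies was not tested. The 6 probe sets that name a member of the family together with another gene were left out.

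**Figure D5:**
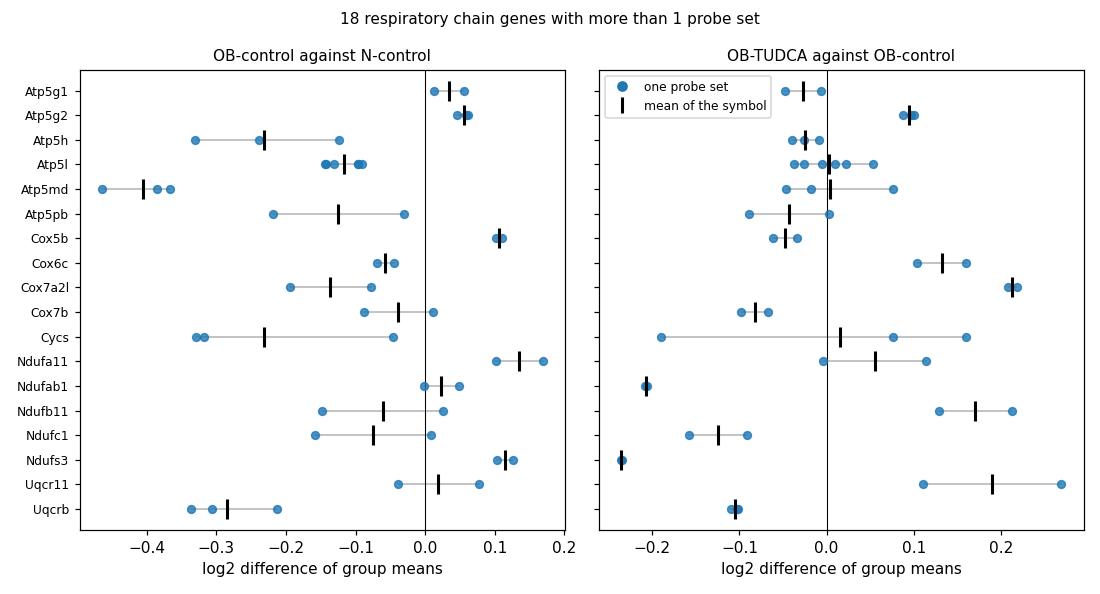
Log2 difference of group means for each probe set (blue points, joined by a grey line within a gene) and their mean (black tick) for the 18 genes with more than 1 probe set, in OB-control against N-control (left) and OB-TUDCA against OB-control (right). Points of a gene lie on both sides of 0 for 5 of the 18 genes in each panel, and Cycs spans -0.19 to 0.16 on the right.

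The replicates of OB-TUDCA differed more in these genes than those of the other groups. For the 91 genes the SD over 3 arrays had a median of 0.07 among N-control, 0.11 among OB-control and 0.15 among OB-TUDCA arrays, and for all genes the medians were 0.11, 0.12 and 0.12. For 72 of the 91 genes OB-TUDCA replicate 3 lay below both other arrays of its group.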

How the data were processed

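Liver RNA was measured on 9 arrays, 3 a group. The authors summarized each probe set to a log2 signal by RMA in Affymetrix Expression Console (version not given in the sources used here), which corrects background, aligns the arrays' distributions and summarizes probes. These deposited log2 values were used as they are. Arrays give no read depth, and their number limits the precision. Probe sets with 1 symbol (21789) were averaged per symbol, and those with several (1621) or unnamed here (12146) were left out. All 19938 genes were fitted in R 4.3.3 with limma 3.58.1 (3 group means, two-sided, Benjamini-Hochberg adjustment over all genes, threshold 0.05). With 3 arrays against 3, an exact permutation test cannot go below 0.1. In simulated data limma recovered 87% of genes given a 2-fold difference in OB-TUDCA against OB-control. Smaller differences were not simulated. No respiratory chain gene differed by as much as 1.5-fold, so the share recovered at the sizes seen here is not known.

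The members, gene lists and tests were chosen with earlier results of these data known. Set to be named were members past the threshold, the 2 highest and 2 lowest per complex and comparison, complex II, Cycs, Cyc1 and isoform groups. Not all of these are described in the text, and some genes outside that choice are. Alternatives were another normalization, signal filter, variance prior, array weights, a replicate block, an acinar covariate, single probe sets and each array left out. Leptin itself was not examined here, and the methods' SAM selection was not repeated. Figures were drawn with matplotlib 3.10.9.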

Additional observations from a re-analysis of the deposited data

How the results depend on the processing

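Under 20 settings no respiratory chain gene passed the threshold in OB-control against N-control or OB-TUDCA against OB-control. In OB-TUDCA against N-control the count of 1 became 2 after quantile normalization once more or subtraction of array medians, and 0 with the mean of the acinar genes as covariate or with subunits only, since Ndufaf1 is an assembly factor. It ranged from 0 to 2 when each array was left out in turn. The median differences stayed within 0.0739, the SD of the 91-gene median between arrays of a group, of their main values (ranges -0.04 to 0.03, -0.05 to 0.08 and -0.05 to 0.07). That SD is pooled over the groups and widened by OB-TUDCA replicate 3 (median -0.15, beside 0.07 and 0.06 on replicates 1 and 2). It is therefore a loose limit, also for the fit without that array. The labels do not say that replicate numbers pair the samples, and same-numbered deviations correlated weakly (-0.08 to 0.21). The fit with the replicate block gave 0, 0 and 1 respiratory chain genes, as without it. Over all genes it called 430 higher and 441 lower in OB-TUDCA against N-control, in place of 269 and 377.

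Of 71 differences of the genes set to be named, 61 never changed sign. Without 1 array, differences ranged from -0.1803 to 0.0021 (Uqcrb), -0.0064 to 0.3153 (Ndufa4l2), -0.1719 to 0.0799 (Cox7b) and -0.065 to 0.0786 (Cycs) in OB-TUDCA against OB-control. Against N-control they ranged from -0.0374 to 0.1882 (Ndufaf2), -0.0031 to 0.033 (Ndufaf3), -0.0114 to 0.0704 (Sdhc), -0.3608 to 0.0325 (Sdhb), -0.0881 to 0.011 (Sdha) and -0.2107 to 0.0411 (Cox7b). Quantile normalization turned Uqcrb (0.0067) in OB-TUDCA against OB-control, and Ndufaf3 (-0.0294) and Sdha (0.0473) against N-control. Subtracting array medians turned Cycs (-0.0173) in the first, and Ndufaf3 (-0.0422) and Sdhc (-0.0328) in the second. Of 3 Cycs probe sets the dimmest gave -0.1899. The causes were not tested.

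Over all genes the 189, 60 and 646 calls of the 3 comparisons moved by more than 1.5 times, to between 60 and 358, 0 and 135, and 193 and 871. In OB-TUDCA against OB-control there were 0 with only the arrays compared, with the acinar covariate and without OB-control replicate 1, N-control replicate 2 or OB-TUDCA replicate 2 or 3. Subtracting array medians gave 208 genes higher and 491 lower in OB-TUDCA against N-control, in place of 269 and 377.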

Other observations

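Other genes of mitochondrial respiration were counted from lists outside the naming rule. Whether the calls among them hold under the other settings is not reported here, and several lie close to the threshold. Among 12 genes of coenzyme Q synthesis, which make the electron carrier between complexes I or II and III, Coq7 was higher in OB-control than N-control by 0.43 (SE 0.08, limma adjusted p = 0.0494), at 7.22, 7.37 and 7.35 against 6.87, 6.84 and 6.96. Coq8a was lower in OB-TUDCA than N-control by 0.92 (difference -0.92, SE 0.17, adjusted p = 0.0213), at 9.53, 9.40 and 8.86 against 10.05, 10.19 and 10.31, and differed from OB-control by -0.83 (adjusted p = 0.0797). Of the 12, 8 means were higher in OB-control than N-control and 11 were lower in OB-TUDCA than OB-control (10 without OB-TUDCA replicate 3), and over all genes 57.0% lay higher in the first of these comparisons and 53.6% lay higher in the second. Of all genes 0.948% were called in OB-control against N-control and 3.24% in OB-TUDCA against N-control.

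Among 39 assembly factors of the respiratory chain not named Ndufaf, 2 were called in OB-TUDCA against N-control, where 3.24% of all genes were, Cox10 (heme A synthesis) at 0.57 (SE 0.10, adjusted p = 0.0215) and Cox11 (copper delivery to complex IV) at -0.40 (SE 0.09, adjusted p = 0.0440). Acad9, which works with Ndufaf1 in the assembly of complex I, measured 7.50, 7.77 and 7.77 on N-control, 8.21, 8.03 and 8.14 on OB-control and 7.61, 7.64 and 7.59 on OB-TUDCA arrays. Its differences of 0.45 in OB-control against N-control (SE 0.09, adjusted p = 0.0677) and -0.52 in OB-TUDCA against OB-control (SE 0.09, adjusted p = 0.0613) did not pass the threshold. The mitochondrial chaperones Hspd1 and Hspe1, which fold imported proteins together, were lower in OB-TUDCA than N-control by 0.65 (difference -0.65, SE 0.08, adjusted p = 0.00398) and 0.46 (difference -0.46, SE 0.10, adjusted p = 0.0433), 2 of 16 genes of import and folding. Of 77 mitochondrial ribosomal protein genes 3 were called in the same comparison, close to the share of all genes, Mrpl1 (-0.51) and Mrps27 (-0.36) lower and Mrps34 (0.36) higher. The list medians were 0.0003 for the ribosomal proteins and 0.02 for import and folding, beside 0.04 for all genes.

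None of 22 regulators of mitochondrial genes or 12 citric acid cycle genes was called in any comparison. Ppargc1a, which encodes PGC-1α, measured 6.16, 5.86 and 5.54 on N-control, 5.92, 6.04 and 6.18 on OB-control and 5.75, 5.03 and 5.45 on OB-TUDCA arrays, a difference of -0.63 between the last 2 groups (SE 0.20, adjusted p = 0.224). Of the subunits encoded in mitochondrial DNA only ND3 and COX2 had a probe set with 1 symbol, with differences of -0.43 (SE 0.15, adjusted p = 0.167) and -0.28 (SE 0.09, adjusted p = 0.138) between OB-TUDCA and N-control.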
